A study of Mus musculus with 9 samples.

Results

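A set of 10 genes of tryptophan breakdown and NAD synthesis was followed in mouse liver: Tdo2, Afmid, Kmo, Kynu, Haao, Acmsd, Qprt, Naprt, Nampt and Nnmt. They were taken by gene name from a table of 56748 genes, so the set holds 10 of 56748, and all 10 passed the filter on low counts that left 13042 genes for testing. They were chosen by their pathway and by count differences between the treatment groups measured in these same libraries, so every difference between the groups below describes these libraries and supports nothing beyond them. Poly(A) RNA of bulk liver was sequenced from male C57BL/6J mice given 20 weeks of high-fat feeding that began at the age of 8 weeks, and labelled 28 weeks old. In the last 4 weeks 5 mice had daily intraperitoneal injections of formoterol, a long-acting beta-adrenergic agonist that raises cyclic AMP, at 1 mg/kg, and 4 mice had the DMSO vehicle. All 9 mice thus shared the diet, and no lean or uninjected group is compared here. The treatment of each column was read from the last letter of its name and the group sizes, and the direction of every difference rests on that reading.

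Liver is the main organ that degrades tryptophan. TDO2 opens the indole ring, and AFMID, KMO, KYNU and HAAO carry the product along the kynurenine pathway to an unstable semialdehyde, aminocarboxymuconate semialdehyde. That intermediate is a branch point: it closes without an enzyme to quinolinate, which QPRT turns into a precursor of NAD, or ACMSD removes a carboxyl group and sends the carbon towards full oxidation. NAD is also made from nicotinic acid by NAPRT and from recycled nicotinamide by NAMPT, while NNMT methylates nicotinamide and takes it out of recycling.

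Across the 10 genes, 6 had higher mean levels in the formoterol livers at an unadjusted p under 0.05 (Acmsd, Nnmt, Haao, Kmo, Nampt and Naprt), and 0 were lower. Acmsd had 2.45 times the vehicle level and Nnmt 2.91 times (fitted folds), and the other 4 lay between 1.39 and 1.49 times. Tdo2, Kynu and Qprt had log2 fold changes of −0.03 (SE 0.21), −0.01 (SE 0.14) and −0.10 (SE 0.14). None of the 10 passed edgeR's quasi-likelihood test after Benjamini-Hochberg adjustment, which called 0 of the 13042 genes tested (0%). At an unadjusted p under 0.05, 9.03% of all genes tested were higher and 5.53% lower (1178 against 721 genes). That split was 991 against 881 with upper-quartile factors and 467 against 1292 with library totals as the scale. The median log2 fold change was 0.48 over the 10 genes and −0.01 over all genes tested.

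The stretch of 250 bases before the RefSeq start site (GRCm38.p6, 5′ to 3′ on the gene's strand) is shown for Kmo, Haao and Nampt, which had higher formoterol means, and for Qprt, whose enzyme acts on the quinolinate formed past the branch point. Capitals mark TGACG, the core of the cyclic AMP response element and a part of its full form, searched on both strands because formoterol acts through cyclic AMP. Kmo is on chr1:175631943-175632192 (plus strand), Haao on chr17:83846791-83847040 (minus strand), Nampt on chr12:32820085-32820334 (plus strand) and Qprt on chr7:127122030-127122279 (minus strand).
Kmo: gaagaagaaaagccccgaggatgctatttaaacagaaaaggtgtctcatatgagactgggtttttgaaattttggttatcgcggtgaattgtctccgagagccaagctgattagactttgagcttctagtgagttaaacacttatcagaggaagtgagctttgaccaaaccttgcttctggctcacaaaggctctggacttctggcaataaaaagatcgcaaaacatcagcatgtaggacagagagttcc
Haao: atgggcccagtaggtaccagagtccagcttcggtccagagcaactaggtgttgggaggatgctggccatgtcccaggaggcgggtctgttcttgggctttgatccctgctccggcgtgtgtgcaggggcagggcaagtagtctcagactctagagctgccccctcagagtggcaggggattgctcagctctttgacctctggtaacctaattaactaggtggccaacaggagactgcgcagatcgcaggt
Nampt: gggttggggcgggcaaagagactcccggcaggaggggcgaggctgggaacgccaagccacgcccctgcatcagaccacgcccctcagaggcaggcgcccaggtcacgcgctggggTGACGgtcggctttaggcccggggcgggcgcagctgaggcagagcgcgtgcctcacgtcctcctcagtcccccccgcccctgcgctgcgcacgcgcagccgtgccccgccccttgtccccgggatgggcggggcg
Qprt: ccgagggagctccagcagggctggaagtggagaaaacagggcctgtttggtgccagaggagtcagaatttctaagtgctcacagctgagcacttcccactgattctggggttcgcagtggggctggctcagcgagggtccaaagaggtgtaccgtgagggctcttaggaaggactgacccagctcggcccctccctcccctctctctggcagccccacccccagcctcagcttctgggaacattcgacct
TGACG stood once in the Nampt window, 135 to 131 bases before the start site, and in none of the other 3 windows shown. It is a common word: 17.9% of 32536 such mouse windows held it. The full element TGACGTCA (1.56% of windows), the palindromic glucocorticoid response element (0.39%) and the HNF4A core CAAAGTCCA (0.387%), each searched on both strands, were in none of the 4 windows shown, and neither was TATAAA (12.3%). The base composition differed widely, from 42.8% G and C in Kmo to 75.6% in Nampt (median over all windows 52.4%).

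The group means of the first step lay close together. Tdo2 (chromosome 3, 81864397 to 81883509 on mm39), which encodes the dioxygenase that opens tryptophan's ring, had 447.7, 433.7, 403.1 and 542.3 CPM in vehicle libraries M56, M58, M59 and M60. CPM here is the usual depth-scaled read count, computed with TMM factors. In formoterol libraries M46, M47, M48, M49 and M50 it had 521.4, 388.1, 668.0, 348.9 and 316.5 CPM. The formoterol values thus ran on both sides of the vehicle values, 1 above all of them and 3 below, and their coefficient of variation was 32.4% against 13.1%. Afmid (chromosome 11, 117716750 to 117730734), the formamidase of the next step, had 13.4 ± 3.49 CPM in vehicle (SD, n = 4) and 16.2 ± 4.09 in formoterol livers (SD, n = 5), and the groups overlapped. Afmid shares 169 bp with Tk1 on the opposite strand, with nearly as many counts in total (2184 for Tk1 against 2193). Its span also shares 13981 bp with Gm20708, a protein-coding gene on the same strand with 0 counts. How reads in shared stretches were counted, and the strand setting, are not given, so Afmid's values are uncertain.

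The middle of the pathway was split. Kmo (chromosome 1, 175447947 to 175489682), the monooxygenase that hydroxylates kynurenine, had 238.8, 272.3, 268.3 and 288.8 CPM in M56, M58, M59 and M60, and 529.0, 400.0, 455.0, 276.8 and 306.8 CPM in M46, M47, M48, M49 and M50. Of the formoterol libraries 4 exceeded every vehicle library, and M49 lay inside the vehicle range (log2 fold change 0.56, SE 0.19, edgeR adjusted p = 0.216). Kmo overlaps Fh1 on the opposite strand by 5255 bp, so reads from that stretch could be counted for either gene. Kynu (chromosome 2, 43445341 to 43572734), which cleaves the side chain of the hydroxylated product, had 106.0 ± 8.21 CPM in vehicle (SD, n = 4) and 105.3 ± 12.9 in formoterol livers (SD, n = 5). Haao (chromosome 17, 84138585 to 84155392), the dioxygenase that makes the branch-point intermediate, had 270.4, 363.4, 297.4 and 459.6 CPM in M56, M58, M59 and M60. In M46, M47, M48, M49 and M50 it had 545.5, 544.5, 627.3, 419.6 and 453.3 CPM. M46, M47 and M48 stood above all vehicle libraries, while M49 and M50 were below vehicle library M60 (log2 fold change 0.58, SE 0.19, edgeR adjusted p = 0.195).

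**Figure D1:**
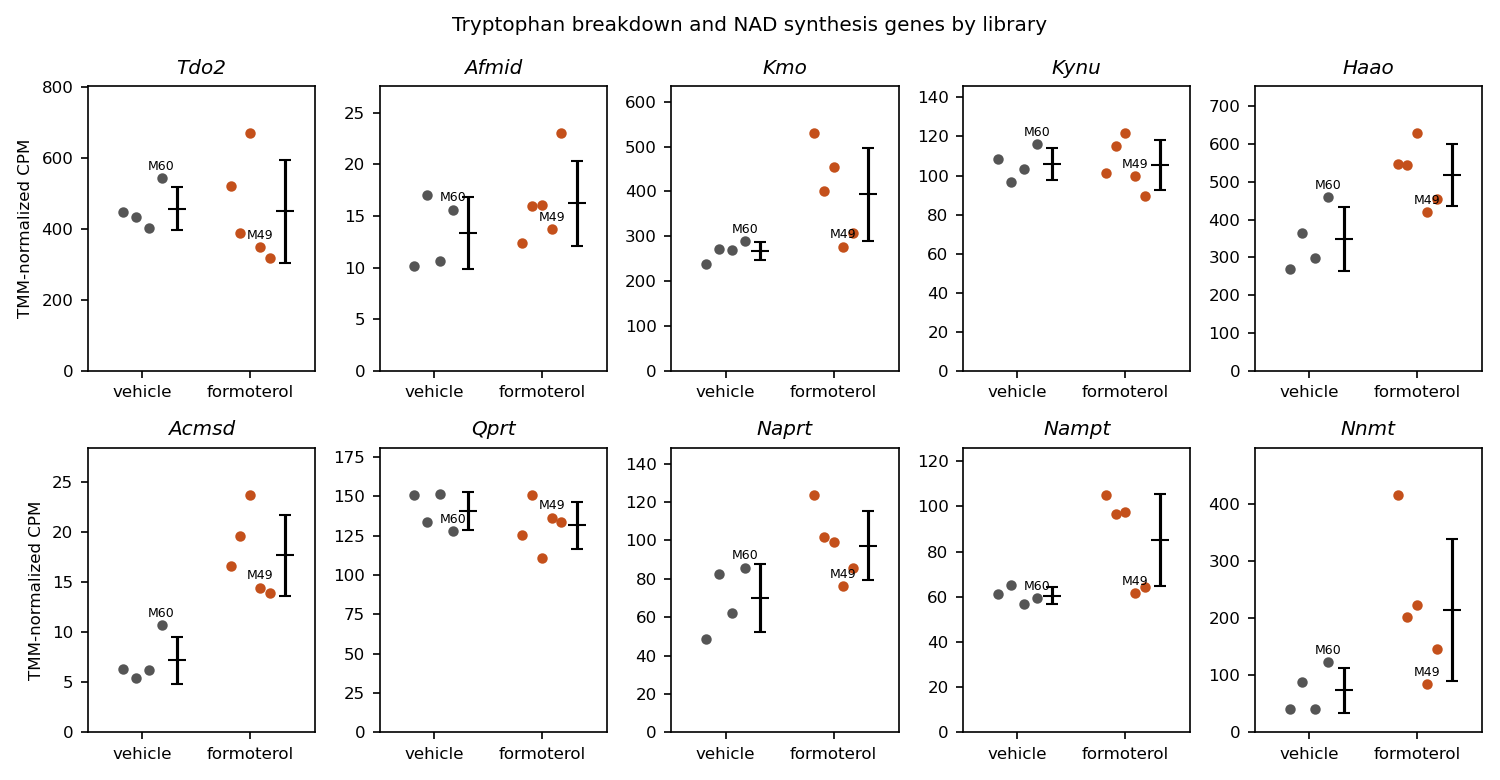
TMM-normalized CPM (y axis, from 0) of each gene in the 4 vehicle and 5 formoterol libraries, with the group mean and SD beside the points and libraries M49 and M60 named. Acmsd is the gene whose groups do not overlap, from 5.43 to 10.7 CPM in vehicle and from 13.9 to 23.7 CPM in formoterol libraries.

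The enzymes on either side of the branch point had different group differences. Acmsd (chromosome 1, 127657150 to 127695715), the decarboxylase that keeps the intermediate from becoming quinolinate, had 6.35, 5.43, 6.25 and 10.7 CPM in M56, M58, M59 and M60. It had 16.6, 19.6, 23.7, 14.4 and 13.9 CPM in M46, M47, M48, M49 and M50. All 5 formoterol libraries were above all 4 vehicle libraries, which held for 1 of the 10 genes and, in that direction, for 2.45% of all genes tested (lower without overlap, 0 of the 10 genes and 2.38% of all). The log2 fold change was 1.29 (SE 0.23, edgeR adjusted p = 0.151). It is a scarce transcript in these livers, with 66 to 365 counts per library. Its span overlaps 2 long noncoding genes on the opposite strand, 2900009J06Rik and an unnamed one, with 31 and 172 counts over all libraries. Acmsd passed edgeR without M49 (adjusted p = 0.00661, where 3.47% of genes were called higher) and without M60 (adjusted p = 0.0334, 0.00757% called higher), and it was called by DESeq2 with all 9 libraries (adjusted p = 0.000256, 1.96% called higher). Limma-voom with sample quality weights called 6 of the 10 genes higher, Acmsd with an adjusted p of 0.00242, against 6.07% of all genes. Over the 9 libraries left out in turn its adjusted p ran from 0.00661 to 0.477 and its log2 fold change from 1.15 to 1.55.

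Qprt (chromosome 7, 126706286 to 126721398), the phosphoribosyltransferase that commits quinolinate to NAD, had 150.8, 133.6, 151.4 and 127.7 CPM in M56, M58, M59 and M60. In M46, M47, M48, M49 and M50 it had 125.2, 150.8, 111.0, 136.4 and 133.7 CPM. No formoterol library exceeded the highest vehicle library and 2 were below the lowest. Per kb of gene length Acmsd made up 4.60 ± 1.76% of the summed level of both transcripts in vehicle (SD, n = 4) and 11.3 ± 3.15% in formoterol livers (SD, n = 5). By library the share was 3.79%, 3.66%, 3.71% and 7.24% in M56, M58, M59 and M60, and 11.0%, 10.8%, 16.6%, 8.99% and 8.88% in M46, M47, M48, M49 and M50. The shares did not overlap, with vehicle library M60 closest to the formoterol libraries, and Qprt remained the more abundant transcript in every library. The log2 ratio of Acmsd to Qprt differed by 1.43 between the group means (−3.02 ± 0.42 in formoterol, −4.44 ± 0.51 in vehicle livers), and by 1.25 to 1.68 with any 1 library left out. These are transcript levels, and neither enzyme activity nor quinolinate was measured in the libraries analysed here.

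Transcripts of the enzymes that make NAD from nicotinic acid and nicotinamide had higher means in formoterol livers. Naprt (chromosome 15, 75762805 to 75766330), which starts NAD synthesis from nicotinic acid, had 48.5, 82.8, 62.35 and 85.8 CPM in M56, M58, M59 and M60 and 123.7, 101.6, 99.15, 76.1 and 85.6 CPM in M46, M47, M48, M49 and M50. Of the 5 formoterol libraries 3 were above every vehicle library. Its span shares 277 bp with Eef1d on the same strand. Nampt (chromosome 12, 32869544 to 32903348), the enzyme that limits NAD recycling from nicotinamide, had 61.15, 65.1, 56.6 and 59.2 CPM in M56, M58, M59 and M60. It had 105.0, 96.75, 97.5, 61.5 and 64.4 CPM in M46, M47, M48, M49 and M50. The formoterol livers fell into 3 libraries at 96.75 CPM or more and 2 inside the vehicle range, and the vehicle libraries were the most uniform of any of the 10 genes (coefficient of variation 5.88%, against 24.0% in formoterol). The log2 fold changes were 0.48 (SE 0.19, edgeR adjusted p = 0.269) for Naprt and 0.49 (SE 0.18, edgeR adjusted p = 0.225) for Nampt.

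Nnmt (chromosome 9, 48503177 to 48516453), which methylates nicotinamide with S-adenosylmethionine, had the widest spread. Vehicle libraries M56, M58, M59 and M60 had 41.9, 88.2, 41.9 and 123.3 CPM, and formoterol libraries M46, M47, M48, M49 and M50 had 416.4, 202.4, 223.9, 84.7 and 146.2 CPM. Its coefficient of variation was 53.5% in vehicle and 58.2% in formoterol livers, and 4 of 5 formoterol libraries exceeded every vehicle library. The log2 fold change was 1.54 (SE 0.50, edgeR adjusted p = 0.220), 1.15 without M46 and 1.91 without M60.

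**Figure D2:**
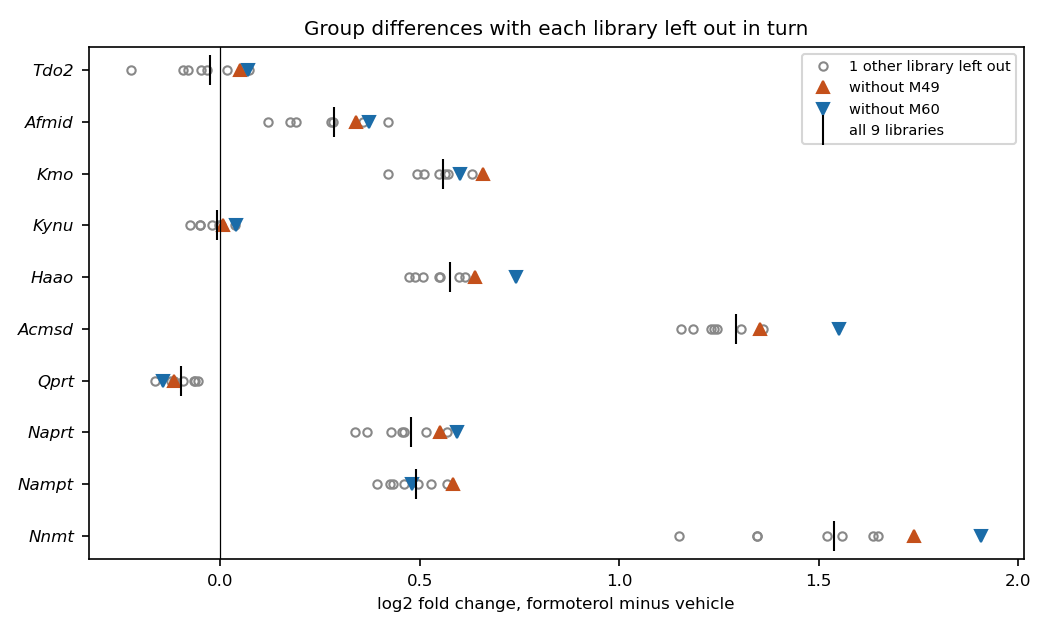
Log2 fold change, formoterol minus vehicle (x axis), of each gene with all 9 libraries (bars) and with each library left out in turn (circles, and triangles for M49 and M60). Acmsd stays between 1.15 and 1.55 and Nnmt between 1.15 and 1.91, while Tdo2 and Kynu lie on both sides of 0.

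Library M49 was the lowest formoterol library in 5 of the 10 genes (Kmo, Haao, Naprt, Nampt and Nnmt), and M60 was the highest vehicle library in 7. Over all genes tested these libraries held those places in 25.9% and 27.7% of genes. Among the genes higher at an unadjusted p under 0.05 the shares were 64.9% and 51.8%, so both libraries lay towards the other group in many genes beyond these 10. Without M49, edgeR called Acmsd, Kmo (adjusted p = 0.0382) and Nampt (adjusted p = 0.0473), and 3.47% of all genes then tested were called higher.

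Transcript abundance spanned more than an order of magnitude along the pathway when compared per kb of the deposited gene length. That length need not be the length of the transcripts expressed in liver. The order of the genes below depends on it. In the vehicle livers Tdo2 was the most abundant at 117.7 ± 15.5 CPM per kb (SD, n = 4), above the whole range of the next gene, Haao (74.28 ± 17.99). Haao, Kmo (56.5 ± 4.40), Qprt (53.3 ± 4.55), Nnmt (46.9 ± 25.1) and Naprt (29.8 ± 7.53) followed, each with a range that overlapped its neighbour's. Kynu (17.2 ± 1.33) and Nampt (11.98 ± 0.70) were separate from their neighbours in this order, and Afmid (3.775 ± 0.98) and Acmsd (2.53 ± 0.83), the scarcest, overlapped. In the formoterol livers Nnmt had the highest mean at 136.2 ± 79.3 CPM per kb (SD, n = 5), overlapping Tdo2 at 115.6 ± 37.5 and, below it, Haao at 110.7 ± 17.6. Acmsd at 6.24 ± 1.43 was then above Afmid at 4.59 ± 1.16 in the mean, with overlapping ranges.

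**Figure D3:**
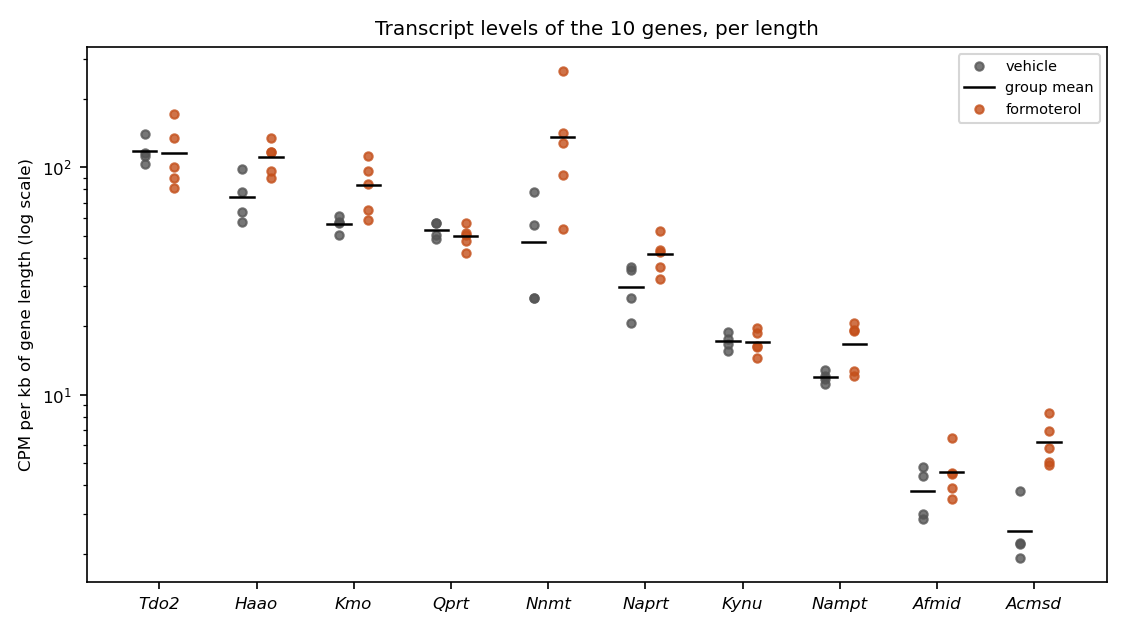
CPM per kb of gene length (y axis, log scale) of the 10 genes in the vehicle and formoterol libraries, ordered by the vehicle mean, with short lines for group means. Tdo2 leads and Acmsd is last in vehicle livers (117.7 and 2.53 CPM per kb), and Nnmt has the highest mean in formoterol livers (136.2 CPM per kb).

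Centring each group on its own mean removes the treatment difference, which the choice of genes had used, and leaves the variation between mice of one group. Over the 9 libraries so centred, log2 CPM of the 10 genes had a median Pearson r of 0.49 over 45 pairs, 32 of them positive, and the median over all pairs of genes tested was −0.001. These correlations describe 9 libraries that share normalization and carry no test. Naprt and Nnmt (r = 0.92, Spearman's rho 0.95) and Kmo and Nampt (r = 0.91, rho 0.87) were the closest pairs, and Acmsd was closest to Kynu (r = 0.88, rho 0.88) and Haao (r = 0.79, rho 0.48). Qprt had a negative r with all 9 other genes, from −0.76 with Tdo2 to −0.26 with Kynu. By rank this was weaker for some, with rho from −0.77 with Haao to −0.05 with Kynu. Afmid had no r above 0.38 with any of them. Thus Tdo2 and Kynu, whose group means hardly differed, still varied with Acmsd from mouse to mouse (r = 0.73 and 0.88).

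**Figure D4:**
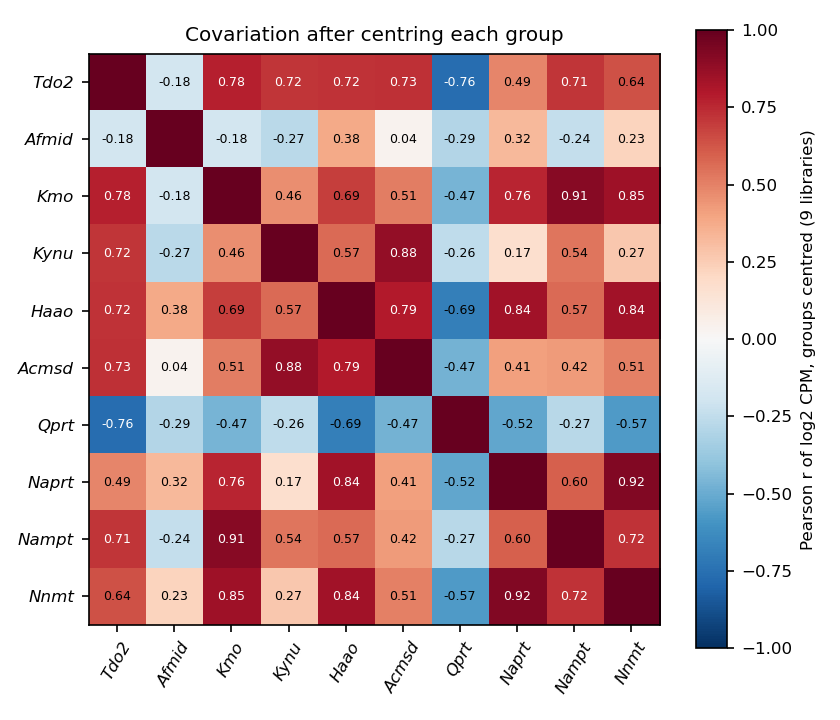
Pearson r of log2 CPM between each pair of the 10 genes over 9 libraries after centring each group (colour scale from −1 to 1). Qprt is negative against all others, and Naprt with Nnmt (0.92) and Kmo with Nampt (0.91) are the highest pairs.

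Among all genes tested, those most like Acmsd after centring were Mrrf, a mitochondrial ribosome recycling factor (r = 0.95), Btbd1, Mat2b, a regulatory subunit of methionine adenosyltransferase, Paox, a polyamine oxidase, and Fuca1, a lysosomal fucosidase (r = 0.93 each, 9 libraries). Kynu ranked 32 and Haao 102 by the same measure. Without centring the nearest were Cmc1 (r = 0.96), Cndp2, Il18, Rpl22l1 and Cox14 (r = 0.94 to 0.95), a measure that includes the group difference. By that measure Haao, at r = 0.91, was the nearest of the 10.

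The median of the 10 genes, chosen partly by their group differences, is no standard for other enzymes of tryptophan and kynurenine metabolism. Of 13 listed, 10 were tested, edgeR called 0 after adjustment, and at an unadjusted p under 0.05 the counts were 2 higher and 0 lower (median log2 fold change 0.12). Kyat1, an aminotransferase that diverts kynurenine to kynurenic acid, had 39.7 ± 6.74 CPM in vehicle (SD, n = 4), with 43.85, 39.6, 30.2 and 45.0 in M56, M58, M59 and M60. In formoterol libraries M46, M47, M48, M49 and M50 it had 63.1, 66.5, 67.4, 29.6 and 87.1 CPM, so M49 alone was below the vehicle range. Dhtkd1 and Gcdh, mitochondrial enzymes of the glutarate route that takes up the carbon downstream of ACMSD, had log2 fold changes of 0.38 (SE 0.16) and 0.35 (SE 0.18). Aldh8a1, the dehydrogenase that acts after ACMSD, had 0.13 (SE 0.15). Ido2, a paralogue of Ido1, had −0.03 (SE 0.16), and Ido1, the inducible form of immune and epithelial cells, had 3 counts over all 9 libraries.

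Nmrk1, which phosphorylates nicotinamide riboside, had 22.5, 31.5, 24.1 and 23.6 CPM in M56, M58, M59 and M60 and 44.7, 40.8, 50.8, 36.3 and 43.1 CPM in M46, M47, M48, M49 and M50. The groups did not overlap, as in 2.45% of all genes tested in that direction. The log2 fold change was 0.76 (SE 0.15), with an adjusted p of 0.151 by edgeR and 0.00186 by DESeq2, which called 1.96% of genes higher. Of 9 listed genes 7 were tested, edgeR called 0 after adjustment, and at an unadjusted p under 0.05 the counts were 2 higher and 0 lower (median log2 fold change 0.12). The other was Nadk2, the mitochondrial NAD kinase, with 159.7 ± 18.5 CPM in vehicle (SD, n = 4) and 236.1 ± 90.9 in formoterol livers (SD, n = 5). Nmnat3, a mitochondrial adenylyltransferase, had a log2 fold change of 0.48 (SE 0.27), and Nadsyn1, which finishes the routes that pass through QPRT and NAPRT, had 0.04 (SE 0.16).

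Genes that consume NAD, listed together with aldehyde oxidases, showed no common direction. Of 13 tested, 0 passed the edgeR test after adjustment, 1 was higher and 1 lower by unadjusted p, and the median log2 fold change was −0.02. Aox1, an aldehyde oxidase, had 94.4 ± 16.3 CPM in vehicle (SD, n = 4) and 70.05 ± 11.8 in formoterol livers (SD, n = 5). Sirt7, a nuclear sirtuin, had a log2 fold change of 0.36 (SE 0.15) and Sirt2, a cytosolic one, 0.26 (SE 0.13).

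**Figure D5:**
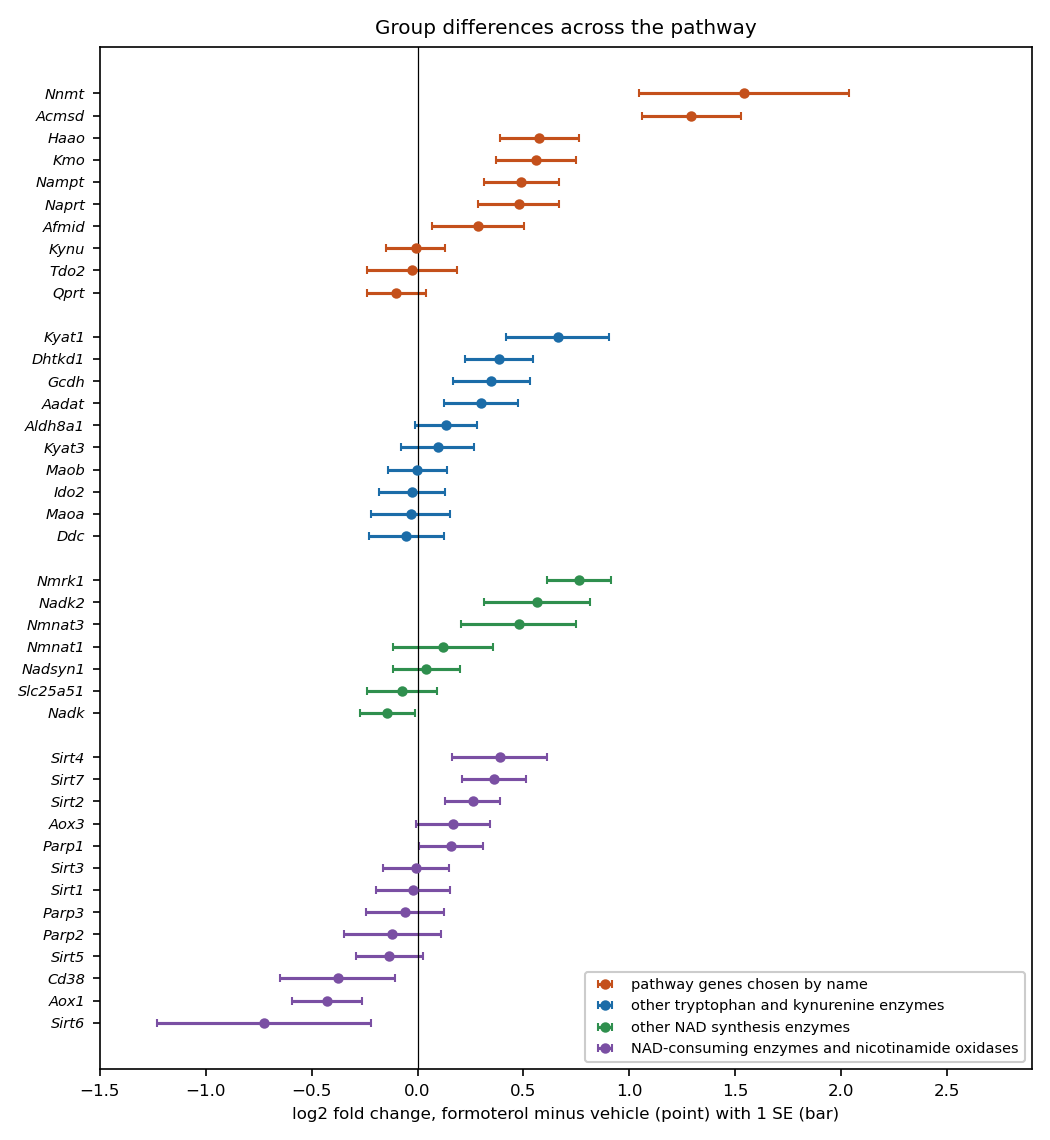
Log2 fold change, formoterol minus vehicle (points, x axis), with 1 SE (bars) for the 10 genes and for tested genes of the other pathway lists. Nnmt (1.54) and Acmsd (1.29) lie farthest to the right, followed by Nmrk1 (0.76), and the NAD-consuming genes lie on both sides of 0.

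Hepatocyte markers also had higher means in formoterol livers. In bulk liver, fewer cells of a type and less RNA per cell cannot be told apart. Of 9 hepatocyte markers analysed, 8 had positive log2 fold changes and 5 were higher at an unadjusted p under 0.05 (median 0.53). The groups did not overlap in 1 of the 9, Apoa1, and in 2.45% of all genes tested in that direction. The summed level of the 9 ran from 87190 to 100700 CPM in vehicle and from 102800 to 142600 CPM in formoterol livers. That sum rests mainly on Alb, whose log2 CPM lay 4.50 above the marker mean in vehicle and 4.47 above it in formoterol livers. After centring, Kmo followed the mean of these markers most closely (r = 0.97), then Nnmt (0.91) and Nampt (0.86), against 0.62 for Acmsd. Relative to the mean log2 CPM of the markers in the same library, the difference was 0.94 for Acmsd (5 of 5 formoterol libraries above every vehicle library) and 1.14 for Nnmt (4 of 5). It was 0.16 for Kmo (3 of 5), 0.23 for Haao (1 of 5), 0.13 for Naprt (0 of 5) and 0.09 for Nampt (3 of 5). For Afmid it was −0.08 (1 of 5), and for Tdo2, Kynu and Qprt −0.44, −0.38 and −0.47 (0 of 5 each). The markers differed on this scale too, with Apoa1 at 0.46 (5 of 5) and Apob at −0.56 (0 of 5). The share of all genes without overlap was not computed on this scale.

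Macrophages and other leukocytes also express kynurenine pathway genes and Nampt. Of 7 tested monocyte and recruited macrophage markers 6 had negative log2 fold changes and 3 were lower at an unadjusted p under 0.05, and the 9 markers summed to 125.8 to 270.0 CPM in vehicle and 84.7 to 310.6 CPM in formoterol libraries, with M49 the highest and M46 the lowest. The 10 Kupffer cell markers summed to 69.9 to 129.5 CPM in vehicle and 53.4 to 119.8 CPM in formoterol libraries, with 0 of 9 tested past an unadjusted p of 0.05. Neutrophil markers summed to at most 1.46 CPM in any library, with Ly6g at 0 counts, dendritic cell markers to at most 6.58 CPM, and T and NK cell markers to at most 2.41 CPM. Stellate cell (8 of 8) and endothelial markers (7 of 7) had negative log2 fold changes, with 0 past an unadjusted p of 0.05. The stellate cell sum ran from 251.4 to 413.0 CPM in vehicle and from 82.3 to 382.4 CPM in formoterol libraries. The endothelial sum was 87.65 ± 9.49 CPM in vehicle (SD, n = 4) and 68.6 ± 26.0 CPM in formoterol libraries (SD, n = 5), lowest in M46 at 28.9 CPM. Cholangiocyte markers summed to 7.74 to 17.7 CPM in vehicle and 6.68 to 20.3 CPM in formoterol libraries. Adipose tissue is rich in Nnmt, and of 4 adipocyte markers Plin1 had 0 counts and Adipoq and Lep 12 counts each, all in formoterol libraries (Adipoq in M47 and M49, Lep in M49). Cfd, the fourth, which encodes adipsin, had 12.5, 6.67, 19.7 and 7.92 CPM in M56, M58, M59 and M60 and 81.85, 86.6, 81.45, 20.3 and 107.0 CPM in M46, M47, M48, M49 and M50. The part of these cell markers in the differences of the 10 genes was not tested.

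Libraries held 12336665 to 20339665 counts, and the genes tested held at least 99.8% of each. Genes of the mitochondrial genome took 23.4% to 34.0% of counts in vehicle and 16.4% to 38.6% in formoterol libraries.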

How the data were processed

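Bulk liver poly(A) RNA of 4 vehicle and 5 formoterol mice was analysed from 1 table of raw read counts per gene that the authors deposited, with 1 column per library and no normalization. Reads were aligned with HISAT2 2.0.5 to mm39, per the submitters' processing notes, which also name DESeq2. What program counted the reads, whether by strand, and from which annotation is not given in the sources used here. Gene lengths and mm39 positions are those of the deposited table. How the lengths were defined is not given in the sources used here.

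Columns carry codes (M46 to M60) and no replicate number. Of 56748 genes, 13042 passed edgeR's filterByExpr (minimum count 10, minimum total 15). The comparison used edgeR 4.0.16 under R 4.3.3 (TMM, robust quasi-likelihood test, Benjamini-Hochberg adjustment over all genes tested, threshold 0.05), which was checked on simulated counts. CPM values use TMM factors, and correlations use log2 CPM with a prior count of 2. Replicates differed from each other by far more than sampling noise (chi-square per degree of freedom 24.3 to 224.9). Group sizes are given in mice, so 1 library was read as 1 mouse; otherwise p-values measure only the spread between samples. DESeq2 1.42.0 and limma 3.58.1 were used as alternatives.

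The genes and lists were chosen with earlier results of these data known. The lists were other tryptophan and kynurenine enzymes, other NAD synthesis enzymes, NAD consumers and tryptophan transporters. Further lists held the glucocorticoid receptor and responsive genes, hepatocyte transcription factors, aryl hydrocarbon receptor genes and cell type markers. Named genes are the 10 pathway genes and the 3 tested genes with the smallest p in a list. The 5 genes most like Acmsd with and without centring are also named. Cell type markers are mostly given as counts and sums. A few others were named after their values were seen (Ido1, Ido2, Aldh8a1, Nadsyn1, Tat, Alb, Apob and the adipocyte markers). Promoter sequences are RefSeq's (GRCm38.p6) and were matched by symbol for 7 of 10 genes, of which 4 are shown; the other 3 promoters and the values of 1 listed gene are not reported here. Their coordinates are not comparable with mm39.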

Additional observations from a re-analysis of the deposited data

Results flagged for a closer look

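The highest or lowest library of a group was compared with the rest by the share of the group's range that separates it from its nearest neighbour. Of 166 groups of values examined 11 were marked, where chance marks about 1 in 20. None of the 10 pathway genes was among them on the CPM scale. Acmsd in vehicle library M60 came close, with a share of 0.825 against the limit of 0.829. The log2 ratio of Acmsd to Qprt per kb in vehicle library M60 was −3.68, with the other vehicle libraries from −4.72 to −4.67.

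Formoterol library M49 stood apart in Cyp1a2 (187.0 CPM, others 516.6 to 618.1), Arnt (16.2 CPM, others 12.7 to 13.7), Ccr2 (4.87 CPM, others 0.73 to 1.77) and Col1a1 (32.3 CPM, others 0.73 to 9.18). M49 also stood apart in the sum of the aryl hydrocarbon receptor genes (227.4 CPM, others 563.8 to 663.2). That sum is mostly Cyp1a2, so it is not a separate mark. The sum of the monocyte and recruited macrophage markers was marked in M49 as well (310.6 CPM, others 84.7 to 141.8). Formoterol library M46 had a Kupffer cell marker sum of 53.4 CPM (others 102.6 to 119.8). Among vehicle libraries, Nr3c1 was 56.4 CPM in M58 (others 46.2 to 46.6), C1qc 16.3 CPM in M56 (others 8.40 to 9.71) and Clec4g 11.5 CPM in M59 (others 15.4 to 16.05).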

How the results depend on the processing

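Acmsd, Kmo, Haao, Naprt, Nampt and Nnmt kept a positive and Qprt a negative log2 fold change under all alternatives run, including values relative to hepatocyte markers, which were added after the data were seen. The 6 genes higher at an unadjusted p under 0.05 became 3 with library totals as the scale, which also moved the median of all genes to −0.16, and 5 to 6 with any 1 library left out. Genes called after adjustment, in either direction, numbered 0 of 13042 as reported. They were 263 of 24041 with no filter on low counts and 314 of the 11264 genes with an adjusted p by DESeq2. Limma-voom with sample quality weights called 1374 of 13042. With any 1 library left out edgeR called 0 to 702 (702 of 12736 without M49, 4 of 13216 without M60). Of the 10 genes, the unfiltered fit, DESeq2, the quality weights and the fits with 1 library left out called 1, 1, 6 and 0 to 3. Of the other listed genes they called 2, 3, 16 and 0 to 12. Near 0, signs changed: Tdo2 was 0.010 with the gene length trend removed and −0.22 to 0.071 with any 1 library left out. Kynu was 0.001 with RLE factors and by DESeq2, 0.067 with quality weights, 0.082 with the length trend removed and −0.076 to 0.039 with any 1 library left out. Afmid was −0.080 relative to hepatocyte markers. The cause was not tested. The difference in the log2 ratio of Acmsd to Qprt was 1.25 to 1.68, and the median r of gene pairs 0.42 to 0.58, with any 1 library left out. No paired analysis was possible because the columns carry no replicate number of the labels. Acmsd had as few as 66 counts in a library, which limits the precision of its single values.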

Other observations

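Kynurenine is a ligand of the aryl hydrocarbon receptor, and the receptor's genes went different ways. Cyp1a2, a target abundant in hepatocytes, had 197.2, 310.8, 273.9 and 345.3 CPM in M56, M58, M59 and M60 and 597.6, 618.1, 590.9, 187.0 and 516.6 CPM in M46, M47, M48, M49 and M50 (log2 fold change 0.83, SE 0.30, edgeR adjusted p = 0.227, and adjusted p = 0.00523 without M49). Cyp1a1, the target most often read as a sign of receptor activity, had 111 counts over all libraries. It had 1.12 ± 0.28 CPM in vehicle (SD, n = 4) and 0.48 ± 0.31 in formoterol livers (SD, n = 5). The groups did not overlap at these low levels, as in 2.38% of all genes tested in that direction. Arnt, the receptor's partner, had a log2 fold change of −0.27. Of 6 tested genes of this list 1 was higher and 0 were lower by unadjusted p, and the median log2 fold change was −0.19.

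Glucocorticoids induce Tdo2 and Tat in liver. The list of the glucocorticoid receptor and responsive genes had 9 tested, 2 higher and 0 lower by unadjusted p (median 0.02). The responsive gene of the 2 was Tsc22d3, which encodes the leucine zipper protein GILZ, at 73.9 ± 13.5 CPM against 51.3 ± 8.35. The other was the receptor gene Nr3c1, at 62.6 ± 12.3 against 48.9 ± 4.98 (formoterol against vehicle, SD, n = 5 and 4). Tat had a log2 fold change of −0.07 (SE 0.19). Per1 had a log2 fold change of −0.44. Of 8 hepatocyte transcription factors 4 had positive and 4 negative log2 fold changes (median 0.02), among them Nr1h4 at 0.25 and Cebpb at 0.19. None of the 5 tryptophan transporter genes passed an unadjusted p of 0.05 (median 0.02), and Slc16a10, an aromatic amino acid transporter, had 78.0 ± 17.5 CPM against 64.9 ± 10.5, with log2 fold changes of −0.44 for Slc7a8 and −0.19 for Slc7a5. No gene of these lists was called by edgeR after adjustment over all genes tested.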
